A study of Mus musculus with 20 samples.

Results

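Scavenger receptors are a set of cell surface and lysosomal proteins grouped by what they bind. They bind oxidized and acetylated lipoproteins, fatty acids, dying cells, bacterial products and other polyanions. The transcripts of 9 of them were examined in the cecum: Olr1, Cd36, Msr1, Scarb1, Scarb2, Scara3, Scara5, Stab1 and Cd68. They were taken by name, as the rows of the count table whose gene identifiers carry these symbols, 9 of the 19887 genes listed. Olr1 was chosen because it falls at every dose of starch in these mice. Its differences between diets are therefore given as a description with no test, whereas those of the other 8, named for their family, are tested. Correlations among mice with the diet means removed did not enter that choice.

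The samples were cecum tissue from 20 C57BL/6 mice bred in-house, with no genetic change, 5 per diet. All mice ate the Total Western Diet (TWD), a rodent diet built on American nutrient intakes, for 6 weeks from 3 weeks of age by the labels. For 3 more weeks 5 of them stayed on the TWD (0% RPS) and 5 each received the TWD with 2, 5 or 10% raw potato starch (RPS, by weight), a granular resistant starch that is fermented in the cecum. The question was how the amount of RPS relates to gene expression in the tissue. Poly(A) RNA was sequenced, and the libraries held between 14967798 counts (mouse 3, 5% RPS) and 42687283 counts (mouse 5, 2% RPS). Levels are in CPM, the counts of a gene scaled to library size by TMM. Sections of cecum hold several cell types, so fewer cells of a type and less RNA per cell cannot be told apart.

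LOX-1, the product of Olr1, is a C-type lectin-like receptor that takes up oxidized low-density lipoprotein. It is best known from endothelium, where it is induced by inflammatory and oxidative signals, and it is shed from the surface by proteases. Cd36 carries long-chain fatty acids and oxidized lipoprotein into adipocytes, macrophages, capillaries and the enterocytes of the small intestine. Scarb1 (SR-BI) docks high-density lipoprotein for selective uptake of cholesterol, and Scarb2 (LIMP-2) is a membrane protein of the lysosome. Msr1, Cd68 and Stab1 mark macrophages, Stab1 also some sinusoidal and lymphatic endothelium. Scara5 takes up ferritin and is found in fibroblasts and epithelium, and Scara3 is a less studied intracellular member induced by oxidative stress.

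Olr1 (ENSMUSG00000030162) lies on the minus strand of GRCm39 chromosome 6 at 129462207-129484128, among genes for C-type lectins of natural killer and myeloid cells, and has 6 annotated transcripts. The 250 bases before the transcription start are shown for Olr1 and Scarb2, the only 2 of the 9 genes for which all 5 mice on 10% RPS and all 5 on 5% RPS lay below every mouse on 0% RPS. Over all 15348 genes tested this held for 3.2% with 10% RPS and 2.04% with 5% RPS, each dose taken alone. Olr1 was chosen for its fall, so its place among these 2 follows in part from that choice. The sequences come from RefSeq (GRCm38.p6), of which windows of 5 of the 9 genes were used here, and each was found once in GRCm39. Both genes are on the minus strand, and the sequences run 5′ to 3′ along it, the Olr1 bases at GRCm39 chr6:129484129-129484378 and the Scarb2 bases at chr5:92653517-92653766. The Scarb2 bases lie inside the annotated span of the gene (chr5:92589169-92654692), since other annotated transcripts begin further upstream. Capitals mark matches, on either strand, to the motifs described next.
Olr1: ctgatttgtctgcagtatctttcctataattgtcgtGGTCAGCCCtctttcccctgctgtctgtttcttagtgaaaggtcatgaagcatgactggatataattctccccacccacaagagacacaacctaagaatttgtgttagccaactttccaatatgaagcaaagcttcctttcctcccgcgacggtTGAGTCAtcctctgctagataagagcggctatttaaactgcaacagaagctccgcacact
Scarb2: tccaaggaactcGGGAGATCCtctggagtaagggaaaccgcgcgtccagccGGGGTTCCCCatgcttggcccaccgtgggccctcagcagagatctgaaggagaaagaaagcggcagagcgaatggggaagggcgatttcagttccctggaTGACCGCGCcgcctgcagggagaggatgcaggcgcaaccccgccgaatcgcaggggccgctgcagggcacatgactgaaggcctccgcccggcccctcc

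In the window of 300 bases (250 before to 50 after the start) the letters TGANTCA, the AP-1 motif, were found once in Olr1, starting 60 bases before the start, and not in Scarb2. Among 32851 RefSeq windows of this length, 7.81% hold TGANTCA. The kappa B like letters GGGNNNNCC were found in both genes, once in Olr1 at 214 bases before the start and at 3 positions in Scarb2, of which 2 overlap, and 43.8% of all windows hold them. The antioxidant response like letters TGACNNNGC were found once, in Scarb2 at 99 bases before the start (12.4% of all windows). The letters TATAAA (13.6%), TTCNNNGAA (8.3%), CACGTG (7.15%) and ACGTG (19.6%) were not found in either window. Of the other windows used, that of Cd68 held TGANTCA at 149 and at 24 bases before the start, and GGGNNNNCC at 218 bases before it. Those of Cd36 and Stab1 held none of these letters. A match of letters is a description of the sequence and not a site of binding.

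Olr1 was lower at every RPS level than on the TWD alone. In mice fed 0% RPS its level was 7.06, 4.70, 7.88, 5.14 and 2.98 CPM in mice 1 to 5. In mice fed 2% RPS it was 2.09, 1.43, 1.11, 3.12 and 1.28 CPM. All mice on 2% RPS except mouse 4 were below the lowest mouse on 0% RPS. In mice fed 5% RPS it was 1.21, 1.64, 0.95, 0.79 and 0.85 CPM. In mice fed 10% RPS it was 0.91, 0.88, 1.30, 1.93 and 2.21 CPM. On both higher doses every mouse was below every mouse on 0% RPS, while the 3 RPS diets overlapped each other.

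**Figure D1:**
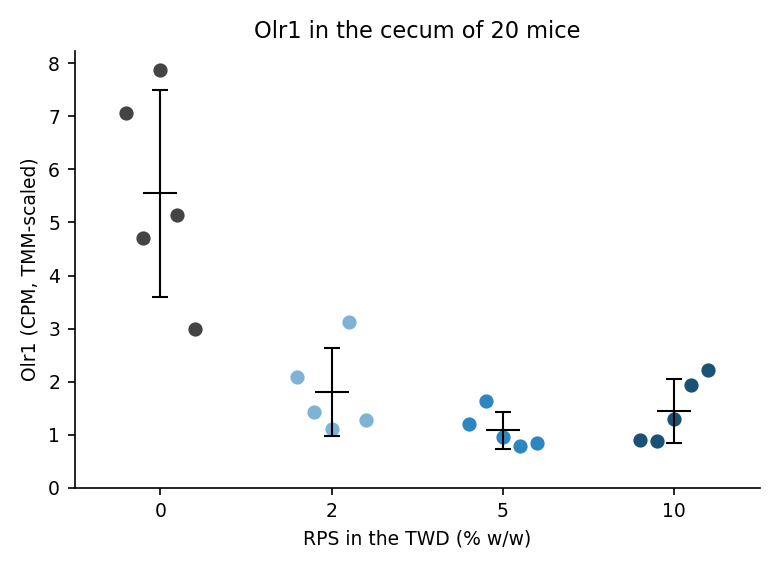
Olr1 level in CPM (vertical axis, from 0) in each of 20 mice by the percentage of RPS in the TWD (horizontal axis); points are mice, bars the mean and SD of 5 mice. The 5 mice on 0% RPS lie between 2.98 and 7.88 CPM, and of the 15 mice on RPS only mouse 4 on 2% RPS (3.12 CPM) reaches into that range.

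The mean Olr1 level was 5.55 ± 1.95 CPM (SD, n = 5) on 0% RPS, 1.81 ± 0.82 CPM on 2% RPS, 1.09 ± 0.35 CPM on 5% RPS and 1.45 ± 0.60 CPM on 10% RPS. The level on RPS was thus 32.5, 19.6 and 26.03% of that on 0% RPS at 2, 5 and 10% RPS. The fitted log2 fold changes were -1.62 (SE 0.33) with 2% RPS, -2.33 (SE 0.34) with 5% RPS and -1.95 (SE 0.33) with 10% RPS, levels 3.08-fold, 5.03-fold and 3.87-fold lower. The lowest mean was at 5% RPS, and the estimate for 10 against 2% RPS was -0.33 (SE 0.33) on the log2 scale. The linear slope was -0.18 (SE 0.04) log2 units per percentage point of RPS. These counts were low: Olr1 had between 104 and 217 reads per mouse on 0% RPS and between 15 and 97 on the RPS diets. The 3 comparisons share the 5 mice on 0% RPS, so that they are not separate observations of that group.

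Across all genes, 160 of 15348 tested (1.04%) were past the threshold, an adjusted p of at most 0.05 and a change of at least 1.5-fold, with 10% RPS. With 5% RPS 30 genes (0.195%) were past it. With 2% RPS there was none (0.0%), although 883 genes (5.75%) had an unadjusted p under 0.05 in edgeR and DESeq2 called 5 genes. Between 10 and 2% RPS no gene was past the threshold either (0.0%), with 720 genes (4.69%) at an unadjusted p under 0.05 and 1 gene called by DESeq2. The trend over dose, which had no threshold on fold change, gave 170 genes (1.11%). Every mouse on RPS was below every mouse on 0% RPS for 3.2% of genes at 10% RPS, 2.04% at 5% RPS and 0.671% at 2% RPS. These shares are the background for all 9 genes and are not a test of Olr1. The counts were unstable, from 14 to 344 genes with 10% RPS (lowest without mouse 3 of that diet) and from 0 to 114 with 5% RPS (lowest without mouse 5 of that diet) as single mice were left out, and 369 and 241 in DESeq2.

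Markers of the tissue's cell types were read beside Olr1. The 8 endothelial genes, which include Pecam1, Cdh5 and Vwf, summed to between 130.7 and 172.2 CPM on 0% RPS and between 117.8 and 164.6 CPM on 10% RPS, and 0 of 8 were past the threshold, with 6 of the 8 estimates lower. The 9 epithelial genes summed to between 35550 and 41620 CPM on 0% RPS and between 24480 and 39690 CPM on 10% RPS. Car1, a carbonic anhydrase, made up most of the sum, with means of 25150 and 18630 CPM (-0.43, SE 0.14, adjusted p = 0.0956). With 10% RPS 7 of the 9 estimates were lower, none of them past the threshold. Slc26a3, the chloride and bicarbonate exchanger of the surface epithelium, was past it and higher (log2 fold change 0.61, SE 0.16, edgeR adjusted p = 0.0487), a call kept in 7 of 20 fits that left out 1 mouse. The 6 smooth muscle genes ran the other way from Olr1. They summed to between 2441 and 5668 CPM on 0% RPS, 3236 and 5660 CPM on 2% RPS, 4154 and 9680 CPM on 5% RPS, and 3993 and 6694 CPM on 10% RPS. Their estimates were higher with 10% RPS in 6 of 6, and 1, the enteric actin Actg2, was past the threshold (1.28, SE 0.30, adjusted p = 0.0358), a call kept in 13 of 20 such fits. The mouse on 0% RPS with the lowest Olr1, mouse 5, had the highest smooth muscle sum of its diet, 5668 CPM. The same was true of mouse 4 on 5% RPS (9680 CPM). On 2 and 10% RPS the mouse with the lowest Olr1 did not have the highest sum. None of the defining markers of these lists was at 0 in all mice.

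The relation to smooth muscle also held inside the diets. With the mean of each diet removed, Olr1 and the smooth muscle sum were inversely correlated over 20 mice (Pearson r = -0.68, permutation p = 0.00191, adjusted over 63 pairs of a member and a marker list 0.0401; Spearman rho = -0.69, permutation p = 0.0017, adjusted 0.0412). Without mouse 5 on 0% RPS and mouse 4 on 5% RPS, the 2 farthest from the median, r was -0.59. With the endothelial sum r was -0.04 (permutation p = 0.877), with the macrophage sum 0.03 (permutation p = 0.912) and with the epithelial sum 0.02 (permutation p = 0.938). The sum of 8 fibroblast genes ran in the direction of smooth muscle but did not pass the adjustment (r = -0.50, permutation p = 0.0396, adjusted 0.22). Its median was 500.3 CPM on 0% RPS and 575.4, 770.7 and 686.1 CPM at 2, 5 and 10% RPS, with 0 of 8 genes past the threshold at 10% RPS. Of these 6 estimates were higher, with the collagens Col1a1, Col1a2 and Col3a1 giving most of the sum, and those of Pdgfra (-0.31, SE 0.13, adjusted p = 0.183) and Pdgfrb (-0.29, SE 0.11, adjusted p = 0.165) were lower. The part of tissue composition in the lower Olr1 was not tested. These 63 correlations were added after the data had been seen.

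**Figure D2:**
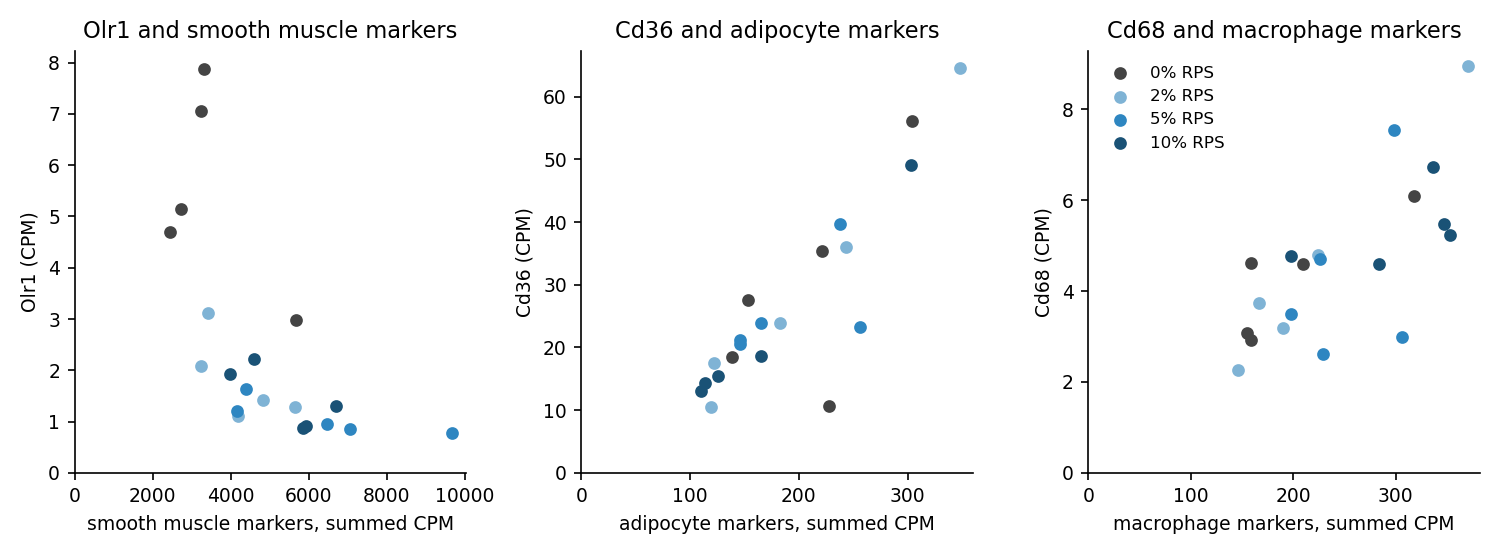
Levels of 3 of the genes in CPM (vertical axes) against the summed CPM of a marker list in the same mouse (horizontal axes), coloured by diet; each point is 1 of 20 mice. Olr1 is low where smooth muscle markers are high (r = -0.68 with diet means removed), Cd36 is high where adipocyte markers are high (r = 0.79), and Cd68 where macrophage markers are (r = 0.72).

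Scarb2, the lysosomal member, was the one gene of the 9 that was lower in all RPS mice than in all mice on the TWD alone, though by a small amount. On 0% RPS its level was 267, 271, 304, 284 and 264 CPM in mice 1 to 5, and on 2% RPS 256, 236, 194, 242 and 218 CPM. On 5% RPS it was 241, 223, 185, 237 and 231 CPM, and on 10% RPS 218, 245, 227, 226 and 214 CPM. All 15 mice on RPS were below all 5 mice on 0% RPS, as was the case for 24 of 15348 genes (0.156%). The mean was 277.9 ± 16.5 CPM (SD, n = 5) on 0% RPS and 229.2 ± 24.0, 223.1 ± 22.7 and 226.1 ± 12.0 CPM at 2, 5 and 10% RPS, about the same level at each dose. The log2 fold changes were -0.28 (SE 0.08, edgeR adjusted p = 0.712) with 2% RPS, -0.32 (SE 0.08, adjusted p = 0.0846) with 5% RPS and -0.30 (SE 0.08, adjusted p = 0.0654) with 10% RPS. None passed the test, and all were under 1.5-fold. DESeq2 gave adjusted p = 0.0112 with 10% RPS and 0.0114 with 5% RPS. In edgeR, the adjusted p with 10% RPS ranged from 0.0356 to 0.163 as each mouse was left out, and was at most 0.05 in 2 of 20 such fits, which lacked mouse 3 of the 2% RPS diet or mouse 4 of the 5% RPS diet. Between 10 and 2% RPS the difference was -0.02 (SE 0.08). With diet means removed, Scarb2 ran inversely to the macrophage sum without passing the adjustment (r = -0.61, permutation p = 0.00858, adjusted over 63 pairs 0.0831). Without the 2 mice farthest from the median r was -0.50. Over all mice r was -0.53 with the sum of 5 B cell genes (permutation p = 0.0341, adjusted 0.22) and 0.22 with the epithelial sum (permutation p = 0.327). The part of tissue composition in the lower Scarb2 was not tested.

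The other genes of the lysosome had no change past the threshold. Of 11 tested with 10% RPS, 0 were past it and 9 had lower estimates, with a median log2 fold change of -0.09 beside 0.004 over all genes. The most abundant were Ctsb, a cathepsin protease (-0.16, SE 0.07, adjusted p = 0.187), Lamp1 (-0.21, SE 0.14, adjusted p = 0.417) and Lamp2 (-0.02, SE 0.10, adjusted p = 0.938), both of which are membrane proteins of the lysosome.

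Scarb1, the receptor for high-density lipoprotein, was slightly lower on average with each dose and did not pass the test. On 0% RPS it was 29.7, 29.8, 26.6, 24.7 and 25.6 CPM in mice 1 to 5, and on 10% RPS 22.9, 20.6, 22.2, 28.2 and 23.9 CPM. Both diets between were similar, from 20.5 to 29.9 CPM on 2% RPS and from 21.0 to 28.9 CPM on 5% RPS. Of the 5 mice on 10% RPS, 4 were below the lowest mouse on 0% RPS, and mouse 4 was within the range of that diet. The log2 fold change was -0.21 (SE 0.11, adjusted p = 0.297) with 10% RPS, -0.15 (SE 0.11, adjusted p = 0.619) with 5% RPS and -0.18 (SE 0.11, adjusted p = 0.898) with 2% RPS. The other genes of high-density lipoprotein and cholesterol handling also gave no call, 0 of 9 with 10% RPS, and a median of -0.01. Among the most abundant were Nr1h2 (-0.01, SE 0.14, adjusted p = 0.979) and Nr1h3 (-0.39, SE 0.12, adjusted p = 0.0838), the sterol-sensing liver X receptors beta and alpha.

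Cd36, the fatty acid translocase, varied more among mice of 1 diet than between diets. On 0% RPS it was 56.2, 27.6, 35.4, 18.4 and 10.6 CPM in mice 1 to 5, and on 2% RPS 17.5, 23.8, 10.5, 64.6 and 36.1 CPM. On 5% RPS it was 20.6, 23.8, 39.7, 23.3 and 21.1 CPM, and on 10% RPS 14.4, 18.7, 15.5, 49.1 and 13.1 CPM. The highest mouse was 6.16 times the lowest over the 20 mice, and the diets overlapped throughout. The log2 fold change was -0.43 (SE 0.49, adjusted p = 0.676) with 10% RPS, -0.21 (SE 0.49, adjusted p = 0.913) with 5% RPS and 0.04 (SE 0.49, adjusted p = 0.995) with 2% RPS.

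The spread of Cd36 ran with that of fat cell transcripts. With diet means removed, Cd36 correlated with the sum of 8 adipocyte genes over 20 mice (r = 0.79, permutation p = 0.00069, adjusted over 63 pairs 0.0401; rho = 0.78, permutation p = 0.00103, adjusted 0.0412), and r was 0.65 without mouse 4 on 2% RPS and mouse 4 on 10% RPS. The genes most like Cd36 in this measure were Hp (r = 0.96), Lpl (0.94), Npr3 (0.92), Lep (0.91) and Retn (0.90) as a description over the same 20 mice. Lep and Retn encode the adipocyte hormones leptin and resistin, are on the adipocyte list, and Lpl encodes the lipase that releases fatty acids from lipoprotein. Adipoq, which defines fat cells, ranged from 1.78 to 34.6 CPM on 0% RPS, from 0.0 to 36.1 CPM on 2% RPS, from 1.70 to 19.3 CPM on 5% RPS and from 0.0 to 27.8 CPM on 10% RPS. The adipocyte sum was between 138.1 and 303.7 CPM on 0% RPS and between 110.3 and 303.2 CPM on 10% RPS, with 0 of 8 genes past the threshold. Lipe (at least 48.2 CPM), Plin4 (at least 34.5 CPM) and Cidec (at least 21.4 CPM) kept the sum up in mice on 10% RPS, where Adipoq, Lep and Retn were at 0 in at least 1 mouse. The part of attached fat in the level of Cd36 was not tested.

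Of the other genes for fatty acid uptake and storage, some were downregulated. Of 19 tested, 2 were past the threshold with 10% RPS, both lower, beside 1.04% of all genes, and the median log2 fold change was -0.26. Dgat2, which makes triglyceride, fell from 228.1 ± 34.2 to 120.9 ± 32.0 CPM (SD, n = 5 each; log2 fold change -0.92, SE 0.20, edgeR adjusted p = 0.0272). Plin2, the coat protein of lipid droplets, fell from 214.2 ± 40.7 to 139.6 ± 7.47 CPM (-0.62, SE 0.12, adjusted p = 0.0251), and it was the one gene of the list past the threshold with 5% RPS, beside 0.195% of all genes. Acsl3, a fatty acid activating enzyme of lipid droplets, fell by 0.53 on the log2 scale (SE 0.08, adjusted p = 0.00603), which is less than 1.5-fold. In the trend over dose 4 genes of the list passed, all lower, beside 1.11% of all genes: Acsl3, Dgat2, Plin2 and Pparg, the nuclear receptor that regulates Cd36 in fat cells and macrophages. These calls depended on single mice. Of 20 fits that each left out 1 mouse, the call with 10% RPS was kept in 14 for Dgat2 and 17 for Plin2, that of Plin2 with 5% RPS in 8, and those of the trend in 14 for Acsl3, 9 for Dgat2, 6 for Plin2 and 7 for Pparg. All estimates stayed lower in those fits. Fabp2, the fatty acid binding protein of enterocytes, was not among them (-0.26, SE 0.17, adjusted p = 0.398).

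Msr1 and Cd68 had higher estimates with 10% RPS that did not pass the test, while Stab1 and Cd36, which macrophages also express, had lower ones. Msr1, the class A receptor, was 3.03, 3.35, 1.88, 1.14 and 1.06 CPM on 0% RPS and 4.01, 2.74, 2.78, 4.34 and 3.68 CPM on 10% RPS in mice 1 to 5. On 2% RPS it was 2.43, 1.70, 2.88, 3.25 and 2.12 CPM, and on 5% RPS 2.47, 3.02, 1.27, 2.01 and 3.91 CPM. On 10% RPS 3 of 5 mice were above the highest mouse on 0% RPS, and mice 2 and 3 were within the range of that diet. The log2 fold change was 0.75 (SE 0.31, adjusted p = 0.197) with 10% RPS, 0.29 (SE 0.31, adjusted p = 0.777) with 5% RPS and 0.25 (SE 0.31, adjusted p = 0.963) with 2% RPS. The slope was 0.07 (SE 0.03, adjusted p = 0.181) log2 units per percentage point.

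Cd68, a lysosomal glycoprotein of macrophages, was 4.59, 6.09, 2.93, 3.09 and 4.62 CPM on 0% RPS and 4.60, 4.78, 6.73, 5.23 and 5.48 CPM on 10% RPS. The diets overlapped, and the log2 fold change was 0.33 (SE 0.32, adjusted p = 0.609). With 5% RPS it was 0.01 (SE 0.32, adjusted p = 0.996) and with 2% RPS 0.11 (SE 0.32, adjusted p = 0.99). The highest Cd68 levels were in mouse 3 on 2% RPS (8.96 CPM) and mouse 4 on 5% RPS (7.55 CPM), the mice with the lowest Scarb2 of their diets. Cd68 correlated with the sum of 12 macrophage genes (r = 0.72, permutation p = 0.00143, adjusted 0.0401; rho = 0.56, permutation p = 0.0208, adjusted 0.164), and r was 0.52 without the 2 mice farthest from the median. That sum was between 155.2 and 318.3 CPM on 0% RPS and between 197.6 and 352.8 CPM on 10% RPS, with medians of 158.9 and 336.4 CPM. The sum of 5 B cell genes was between 4.71 and 184.4 CPM on 0% RPS and between 13.0 and 241.1 CPM on 10% RPS, with medians of 16.7 and 201.2 CPM, and that of 5 T cell genes between 16.8 and 33.96 CPM and between 11.5 and 39.8 CPM. Of these 10 genes 0 were past the threshold. Cd68 had r = 0.66 with the B cell sum (permutation p = 0.006, adjusted 0.0831). Of the 11 genes of the list that could be tested all 11 estimates were higher with 10% RPS, and 0 were past the threshold. The largest share of the sum came from Lyz2 (69.6 ± 48.7 CPM on 0% and 149.9 ± 49.9 CPM on 10% RPS, adjusted p = 0.159), and Itgam was at a mean of 0.04 CPM. Msr1 had r = 0.40 with the macrophage sum (permutation p = 0.105, adjusted 0.3) and 0.26 with the B cell sum (permutation p = 0.319). Stab1 had r = 0.34 with the macrophage sum (permutation p = 0.136, adjusted 0.358). For Stab1 r was 0.47 with the endothelial sum (permutation p = 0.0228, adjusted 0.179) and 0.56 with the smooth muscle sum (permutation p = 0.043, adjusted 0.22). The part of macrophage and lymphocyte number in Msr1 and Cd68 was not tested.

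Stab1, Scara5 and Scara3, read last, had no change past the threshold. Stab1 (stabilin-1) was between 13.2 and 20.1 CPM on 0% RPS and between 15.1 and 18.1 CPM on 10% RPS, with a log2 fold change of -0.06 (SE 0.13, adjusted p = 0.845). The Stab1 gene overlaps Nt5dc2 on the other strand. Scara5, the ferritin receptor, was between 2.27 and 8.07 CPM on 0% RPS and between 3.23 and 6.13 CPM on 10% RPS (0.02, SE 0.33, adjusted p = 0.991).

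Scara3 was somewhat higher on average at each dose. It was 1.86, 1.67, 2.44, 1.58 and 2.93 CPM on 0% RPS and 2.82, 3.02, 2.92, 3.21 and 3.44 CPM on 5% RPS, and only mice 1 and 3 on 5% RPS were below the highest mouse on 0% RPS. The log2 fold change was 0.55 (SE 0.21, adjusted p = 0.234) with 5% RPS, 0.36 (SE 0.21, adjusted p = 0.352) with 10% RPS and 0.38 (SE 0.21, adjusted p = 0.892) with 2% RPS. Scara3 overlaps Clu on the other strand, and whether strand was used in counting is not given in the sources used here, so that reads of such pairs may not have been told apart.

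**Figure D3:**
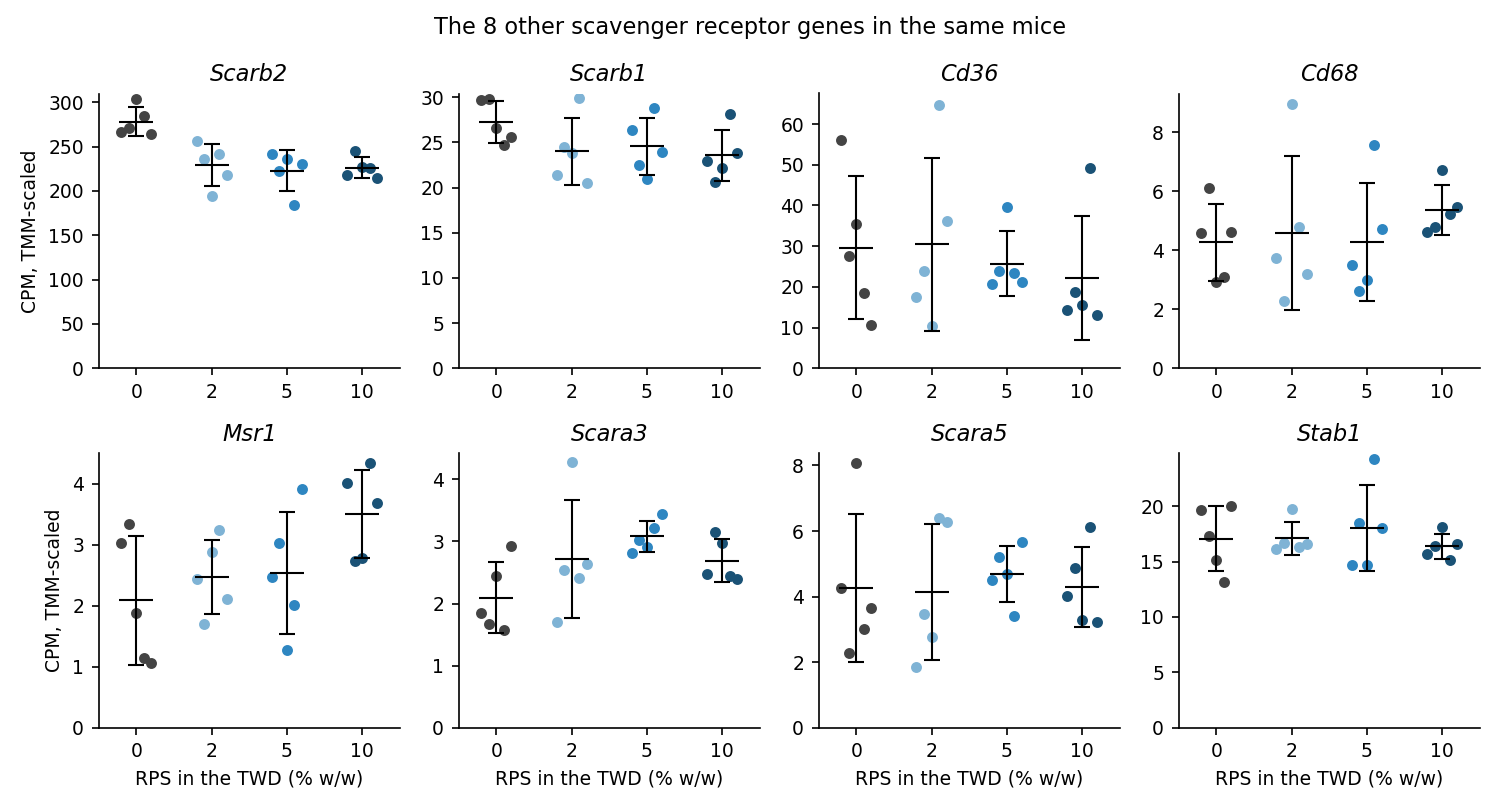
Levels of the 8 other genes in CPM (vertical axes, each from 0) in 20 mice by the percentage of RPS in the TWD (horizontal axes); points are mice, bars the mean and SD of 5 mice. For Scarb2 all 15 mice on RPS lie below 264 CPM, the lowest of 0% RPS, and for the other genes the diets overlap.

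Over the 8 members other than Olr1, 0 were past the threshold at any dose, between 10 and 2% RPS or in the trend, and DESeq2 called 0 as well. At an unadjusted p under 0.05 were Scarb2 and Msr1 with 10% RPS, 2 of 8 beside 19.5% of all genes, and Scarb2 and Scara3 with 5% RPS, 2 of 8 beside 13.3%. With 2% RPS only Scarb2 was, 1 of 8 beside 5.75%.

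**Figure D4:**
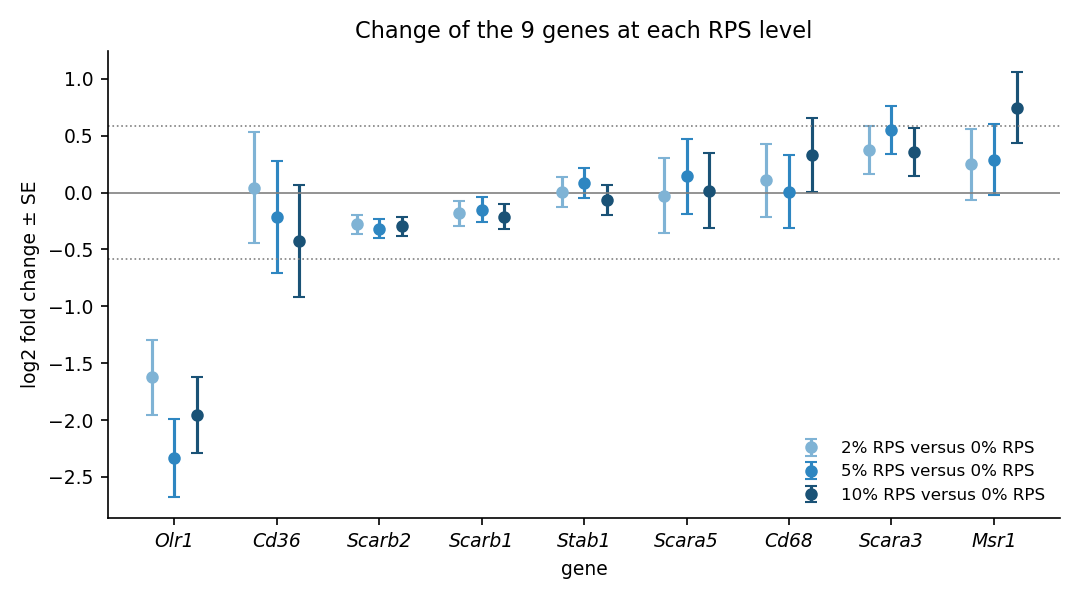
Fitted log2 fold change (vertical axis) of the 9 genes (horizontal axis) at 2, 5 and 10% RPS against 0% RPS, with bars of 1 SE; dotted lines mark a 1.5-fold change. Olr1 lies between -2.33 and -1.62, whereas the other 8 genes lie between -0.43 and 0.75.

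Other scavenger receptors outside these 9 were also without a call. Of 18 tested, 0 were past the threshold with 10% RPS, 12 estimates were higher and 6 lower, and the median was 0.24. The most abundant were Lrp1, a large endocytic receptor (-0.09, SE 0.09, adjusted p = 0.6), Cd44, the hyaluronan receptor (0.21, SE 0.14, adjusted p = 0.44), and Cxcl16, which binds phosphatidylserine and oxidized lipoprotein (0.34, SE 0.22, adjusted p = 0.396). Marco, Asgr1 and Cd5l were too low to test.

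Proteins that shed LOX-1 or carry its signal did not pass the test either, 0 of 16 with 10% RPS and a median of 0.05. Adam10, a sheddase of LOX-1, had a log2 fold change of 0.08 (SE 0.12, adjusted p = 0.769). The GTPases Rac1 (-0.34, SE 0.11, adjusted p = 0.0934) and Rhoa (-0.15, SE 0.09, adjusted p = 0.349) were the most abundant. Of this list 8 of 16 genes had an unadjusted p under 0.05, beside 19.5% of all genes.

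The genes around Olr1 had no change past the threshold. Within 250000 bases on either side 20 genes of the table were found and 14 were tested. With 10% RPS 7 had lower and 7 higher estimates, and 0 had an adjusted p of at most 0.05. Clec7a (dectin-1, a receptor for fungal glucans), the closest one tested, was at -0.07 (SE 0.20, adjusted p = 0.894), Gabarapl1, an autophagy protein, at -0.24 (SE 0.09, adjusted p = 0.138), and Clec9a, a receptor of dendritic cells for dead cells, at 0.43 (SE 0.25, adjusted p = 0.346). Cd69, an activation marker of lymphocytes, was at 1.12 (SE 0.58, adjusted p = 0.296). A separate fixed list held 9 C-type lectin genes, among them Clec2d, which lies outside this window. Of its 7 genes tested, 0 were past the threshold.

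The genes whose levels were most like that of Olr1 over the 20 mice (Pearson r of log2 CPM) were Phldb2 (r = 0.89), Alg9 (0.88), Hilpda (0.88), Ier3 (0.86), Clptm1l (0.86), Plin2 (0.86), Plscr1l1 (0.86), 4931406C07Rik (0.86), Abcb11 (0.85) and Dnajb6 (0.85). The points share the diets, so that a gene lower with RPS can rank high in this measure for that reason alone. Hilpda and Plin2 both encode proteins of lipid droplets, and the mean of Hilpda was 10.6 CPM on 0% RPS and 5.84, 4.19 and 3.99 CPM at 2, 5 and 10% RPS. Abcb11, the bile salt export pump, was below 0.5 CPM on average in each diet. With the diet means removed the leading genes were Senp2 (r = 0.86), Clptm1l (0.83), Wdr77 (0.82), Mettl1 (0.82) and Ptprj (0.82), of which Clptm1l was also in the first list. By Spearman's rho 4 of the 10 genes of the first list stayed among the first 10.

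Between the 9 genes themselves, 36 pairs were correlated with diet means removed. Scarb2 and Stab1 were inversely correlated (r = -0.73, permutation p = 0.0011, adjusted over 36 pairs 0.0396; rho = -0.66, permutation p = 0.0019, adjusted 0.0684), and r was -0.54 without mouse 3 on 2% RPS and mouse 4 on 5% RPS. These were the mice with the lowest Scarb2 (194 and 185 CPM) and the highest Stab1 (19.8 and 24.2 CPM) of their diets. No other pair had an adjusted p of at most 0.05. The nearest were Stab1 and Cd68 (r = 0.66, permutation p = 0.00363, adjusted 0.0653). Scarb2 and Cd68 followed (r = -0.67, permutation p = 0.0141, adjusted 0.143), with r at -0.29 without the same 2 mice. For Olr1 the highest was with Cd36 (r = 0.55, permutation p = 0.0302, adjusted 0.155).

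Per length of exon (CPM per kb of the union of exons, mean over 20 mice), Scarb2 stood far above the rest at 34.6 ± 4.23 (SD, n = 20). Cd68 was at 3.38 ± 1.26, Scarb1 at 2.40 ± 0.31, Cd36 at 2.14 ± 1.21 and Stab1 at 1.67 ± 0.24. Scara5 was at 0.70 ± 0.25, Scara3 at 0.62 ± 0.15, Olr1 at 0.62 ± 0.52 and Msr1 at 0.42 ± 0.15. Scarb2 was above the next gene in 20 of 20 mice and Stab1 above Scara5 in 20 of 20, whereas Cd36 was above Stab1 in 11, Scara5 above Scara3 in 12, Scara3 above Olr1 in 13 and Olr1 above Msr1 in only 9, so that these neighbours were not separated beyond their spread. On 0% RPS Olr1 was at 1.38 ± 0.49 CPM per kb (n = 5), above the level of Scara5 on that diet (0.69 ± 0.36), and on 5% RPS at 0.27 ± 0.09, below that of Msr1 (0.40 ± 0.16). Lengths from the longest transcript put Scarb1 (7.91) and Cd36 (6.18) above Cd68 (3.51), and Msr1 (0.73) above Olr1 (0.69) and Scara3 (0.68), so the order of these genes depends on the gene model.

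**Figure D5:**
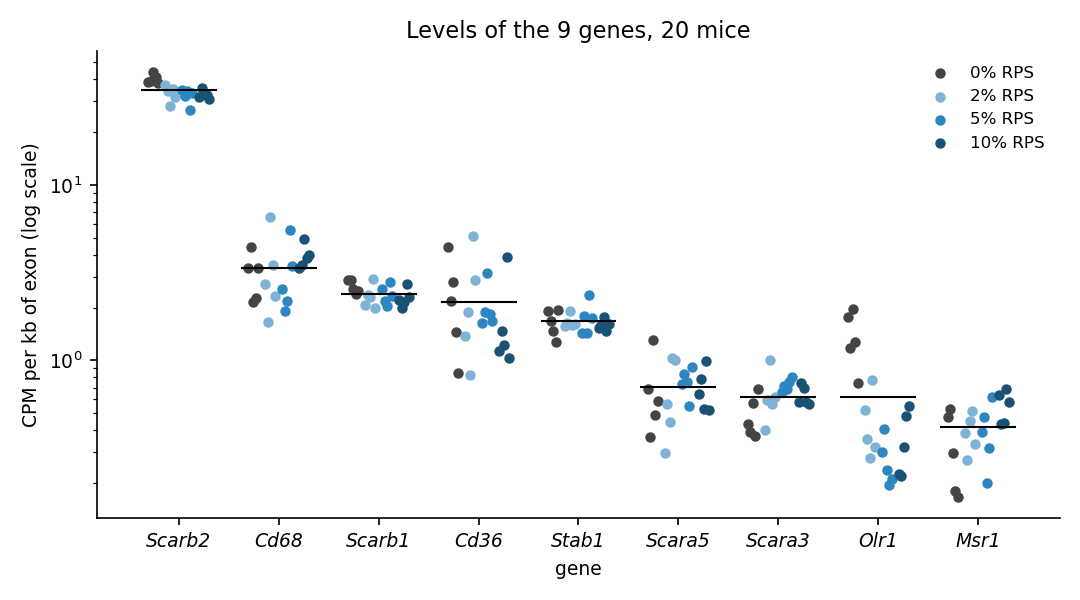
Level per length of exon (CPM per kb, log scale, vertical axis) of the 9 genes (horizontal axis, in the order of their means) in 20 mice, coloured by diet; black lines are means over all mice. Scarb2 (mean 34.6) lies above all other genes, and Olr1 has the widest range in proportion, its highest mouse 10.0 times its lowest.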

How the data were processed

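The values deposited were raw counts by gene for 20 cecum libraries (stranded poly(A) kit, single-end reads), mapped to GRCm39 in CLC Genomics Workbench 20.01 after removal of low-quality bases and ambiguous reads. The annotation release, the strand setting and the handling of reads that map to several genes are not given in the sources used here. Mice were assigned to diets by the sample labels and numbered 1 to 5 within a diet. The label numbers differ between diets, so mice are not paired. Symbols and positions came from GENCODE vM39, which held 19827 of 19887 identifiers.

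Counts were fitted in edgeR 4.0.16 (R 4.3.3) with TMM scaling, filterByExpr (minimum count 10, minimum total 15), 4 diets in 1 quasi-likelihood model with robust empirical Bayes, and Benjamini-Hochberg adjustment over 15348 genes. The threshold was an adjusted p of at most 0.05 and a 1.5-fold change, with no fold threshold for the trend. All adjusted p-values are from this fit unless DESeq2 1.42.0 (Wald test) is named. The model was tested on simulated data. Correlations used log2 CPM (prior count 2) with diet means removed and 100000 two-sided permutations of mice within diets, with a smallest p of 1e-05. Total counts were at least 14967798, where 3 counts, used as the floor of detection, are 0.19 CPM. The floor covers counting error only.

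The members and gene lists were chosen with earlier results of these data known. Genes named besides the members were the 10 most like Olr1 over all mice and the 5 most like it with diet means removed, tested genes within 250000 bases of Olr1, and from each list those past the threshold with 10% RPS or in the trend, otherwise the most abundant, except for a gene that is not reported here. Fabp2, the marker genes and the genes most like Cd36 were named after their values had been seen. As alternatives, size factors and the Wald test of DESeq2 were used, the filter was dropped or raised to 10 counts in every mouse, empirical Bayes was run without the robust option, only the 2 diets compared were fitted, dose was replaced by its rank, and single mice were left out.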

Additional observations from a re-analysis of the deposited data

Results flagged for a closer look

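In 36 groups of 5 mice (9 genes on 4 diets), 3 had 1 mouse far above or below the other 4, by a gap to the next mouse of more than 0.71 of the group's whole range. Chance gives a gap of this size at either end in about 1 in 20 groups, and in these 3 it was at the upper end. Cd36 was at 39.65 CPM in mouse 3 on 5% RPS (gap 0.83 of the range) and at 49.1 CPM in mouse 4 on 10% RPS (gap 0.844), and both mice also had the highest or second highest adipocyte sum of their diets. Stab1 was at 19.77 CPM in mouse 3 on 2% RPS (gap 0.851), the mouse with the highest Cd68 of all 20.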

How the results depend on the processing

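Olr1 was lower with RPS under every alternative run, with log2 fold changes as single mice were left out from -2.15 to -1.79 at 10% RPS, -2.54 to -2.17 at 5% RPS and -1.92 to -1.47 at 2% RPS. Of the other 8 members 0 were past the threshold in any comparison under any alternative. Counts over all genes were less stable, and the cause was not tested. With 10% RPS they were 369 in DESeq2's Wald test and 98 with only the 2 diets fitted, with a range of 14 to 344 as mice were left out, lowest when 10% RPS mouse 3 was missing and highest when 0% RPS mouse 2 was. With 5% RPS they were 241 and 65, with a range of 0 (5% RPS mouse 5 left out) to 114 (5% RPS mouse 1 left out). With 2% RPS the Wald test gave 5, and for 10 against 2% RPS 1. The trend gave 710 in the Wald test, 103 without a filter and 539 with the rank of the dose, with a range of 0 (10% RPS mouse 1 left out) to 674 (2% RPS mouse 3 left out).

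Estimates near 0 changed sign as mice were left out. At 10% RPS Scara5 ranged from -0.14 to 0.38 and Stab1 from -0.14 to 0.0182. At 5% RPS Cd36 ranged from -0.42 to 0.16, Scara5 from -0.0145 to 0.50, Stab1 from -0.0529 to 0.15 and Cd68 from -0.31 to 0.17. At 2% RPS Cd36 ranged from -0.43 to 0.41, Scara5 from -0.23 to 0.34, Stab1 from -0.0763 to 0.0782 and Cd68 from -0.29 to 0.29. For 10 against 2% RPS Scarb2 ranged from -0.0637 to 0.0252, and the slope of Scara5 from -0.0088 to 0.028. No paired analysis was possible because the diets hold different mice with different label numbers. Olr1 rests on as few as 15 reads per mouse, which limits the order of the 3 RPS diets.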

Other observations

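Scara5, which was not past the threshold in any comparison, had a correlation with the adipocyte sum that did not pass the adjustment. With diet means removed r over 20 mice was 0.64 (permutation p = 0.00923, adjusted over 63 pairs 0.0831; rho = 0.62, permutation p = 0.0149, adjusted 0.164), and 0.52 without mouse 4 on 2% RPS and mouse 4 on 10% RPS. The genes most like Scara5 in this measure were Wdr53 (r = 0.81), Prrg3 (0.81), Nrg3 (0.80), Htra3 (0.78) and Dcn (0.77). Dcn is on the fibroblast list, whose sum had r = -0.09 with Scara5 (permutation p = 0.729). The Pearson correlation of Scara3 with the smooth muscle sum did not pass the adjustment either (r = 0.56, permutation p = 0.00746, adjusted 0.0831). Its rho of 0.63 did (permutation p = 0.00196, adjusted 0.0412), and r was 0.48 without the 2 mice farthest from the median.

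Those most like Msr1 with diet means removed were 4933431K14Rik (r = 0.81), Adgre4 (0.81), Ighv8-8 (0.80), Cacna1s (0.79) and Ly96 (0.78). They belong to no single cell type, since Adgre4 is a receptor of the macrophage F4/80 family, Ly96 the partner of a Toll-like receptor, Ighv8-8 an immunoglobulin gene segment and Cacna1s a calcium channel of muscle. These genes were singled out after their values had been seen.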
